A study of Mus musculus with 110 samples.

Results

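Zonation of the liver lobule was followed through 10 marker transcripts, 7 pericentral (Glul, Oat, Slc1a2, Axin2, Lgr5, Tbx3 and Rnf43) and 3 periportal (Gls2, Hal and Cdh1). They were chosen by gene name out of the 56884 gene rows of the liver count table, with earlier results of these data known. All 10 were among the 22143 genes with at least 10 counts in total that were tested. The liver libraries came from male C57BL/6N mice aged 16 weeks at the end of the experiment, with 7 mice in each of 4 groups and 1 library per mouse. Every mouse received a diet with 0% cysteine. Ctrl_RT mice ate 0.86% methionine for 7 days at 22 °C, and MetR_RT mice ate 0.12% methionine for the same time at the same temperature. Ctrl_CE and MetR_CE mice had the corresponding diet for 7 days and then an additional 24 hr at 4 °C, so that cold exposure cannot be told apart from 1 more day on the diet. The design asks what cold (Ctrl_CE), methionine restriction (MetR_RT) and both together (MetR_CE) do to the liver transcriptome relative to Ctrl_RT, and whether the effects depend on each other.

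Blood enters the hepatic lobule at the portal triad and leaves at the central vein, and hepatocytes along this path divide the work of the liver between them. Endothelial cells of the central vein release Wnt ligands and R-spondin, which raise beta-catenin signaling in neighboring hepatocytes and maintain the pericentral program of glutamine synthesis and drug metabolism. Periportal hepatocytes, with low Wnt signaling, carry more of the urea cycle, amino acid breakdown and gluconeogenesis. Bulk liver RNA holds no position, so that a change in these markers is a change of the total level in the tissue. Fewer cells of a type and less RNA per cell cannot be told apart in such libraries, and neither can a wider zone and more RNA per cell within it.

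In the GRCm38.p6 assembly, Glul (ENSMUSG00000026473.17) lies at chr1:153899929-153909723, Oat (ENSMUSG00000030934.10) at chr7:132557475-132576398 and Slc1a2 (ENSMUSG00000005089.16) at chr2:102658239-102790784. Axin2 (ENSMUSG00000000142.16) is found at chr11:108917828-108950783 and Rnf43 (ENSMUSG00000034177.16) at chr11:87663087-87735539. Lgr5 (ENSMUSG00000020140.16) occupies chr10:115450314-115587780 and Tbx3 (ENSMUSG00000018604.19) chr5:119670534-119684724. The periportal genes are Gls2 (ENSMUSG00000044005.14) at chr10:128194635-128210004, Hal (ENSMUSG00000020017.15) at chr10:93488768-93516761 and Cdh1 (ENSMUSG00000000303.13) at chr8:106603350-106670247.

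RefSeq promoter windows on GRCm38.p6 were matched for 6 of the 10 genes, Glul, Oat, Slc1a2, Axin2, Rnf43 and Hal. The part of the window upstream of the start and outside annotated exons is shown for Oat (minus strand, chr7:132576399-132576648) and Slc1a2 (plus strand, chr2:102706188-102706355), 2 pericentral genes whose transcripts rose with cold, for Axin2 (plus strand, chr11:108920099-108920348), a Wnt feedback gene, and for the periportal gene Hal (plus strand, chr10:93488518-93488767). Capitals mark any match to the TCF/LEF letters, taken as CTTTG followed by 2 letters that are each A or T, on either strand.
Oat: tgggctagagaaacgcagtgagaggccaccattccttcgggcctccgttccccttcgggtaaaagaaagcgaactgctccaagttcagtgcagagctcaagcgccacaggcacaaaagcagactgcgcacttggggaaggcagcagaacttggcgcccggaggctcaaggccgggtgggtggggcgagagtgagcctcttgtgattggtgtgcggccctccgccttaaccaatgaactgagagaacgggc
Slc1a2: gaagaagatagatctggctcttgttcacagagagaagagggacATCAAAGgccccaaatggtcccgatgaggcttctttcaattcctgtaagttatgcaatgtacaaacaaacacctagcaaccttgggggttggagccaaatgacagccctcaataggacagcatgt
Axin2: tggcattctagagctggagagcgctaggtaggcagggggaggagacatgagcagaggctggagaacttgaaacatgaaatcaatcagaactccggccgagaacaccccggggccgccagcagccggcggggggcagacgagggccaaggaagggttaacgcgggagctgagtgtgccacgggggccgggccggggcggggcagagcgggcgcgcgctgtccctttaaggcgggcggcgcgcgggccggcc
Hal: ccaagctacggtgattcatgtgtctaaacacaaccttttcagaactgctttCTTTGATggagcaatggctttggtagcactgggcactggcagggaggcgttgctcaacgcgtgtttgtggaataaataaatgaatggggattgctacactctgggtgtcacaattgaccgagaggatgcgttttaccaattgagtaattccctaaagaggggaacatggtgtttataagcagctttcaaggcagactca
The transcript starts of Oat and Hal are the ends of the gene spans given above, whereas those of Slc1a2 and Axin2 lie inside their genes, so that these windows belong to an internal start. Slc1a2 held 1 match, ATCAAAG, 207 to 201 bases before that start, and Hal held 1 match, CTTTGAT, 199 to 193 bases before the start. These letters are common, since 14.8% of the 32851 promoter windows held at least 1 match in the 250 bases before the start. The windows of Glul, Oat, Axin2 and Rnf43 held none, which says only that the letters are not in these windows. A match is a description of the sequence and not a binding site.

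Library totals lay between 6987895 and 33444374 counts (median 14833327), with both extremes in MetR_RT. Levels are given as CPM, a library's count of a gene relative to its scaled total, scaled by TMM factors. Hepatocyte markers dominated all libraries, with 8 genes such as Alb summing to between 61550 and 121500 CPM, whereas the adipocyte markers (at most 6.96 CPM) and the lymphocyte markers (at most 6.90 CPM) were near 0. A few libraries stood apart. Among Ctrl_CE, replicates 2 and 4 had the highest sums of 6 Kupffer cell markers (921 and 782 CPM, against 192 to 453 in the other 5) and of the neutrophil markers (7.68 and 37.5 CPM, against at most 1.48 in the others). Ctrl_CE replicate 4 also held the lowest level of its group in 5 of the 10 zonation markers. In Ctrl_RT replicate 7, Spp1, which is made by bile duct cells, reached 308 CPM, against a group median of 44.5. The marker values were also computed without these libraries.

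The pericentral enzyme and transporter genes responded in the same direction to cold. Oat, which encodes ornithine aminotransferase, rose by 1.72-fold in Ctrl_CE and by 2.34-fold in MetR_CE over Ctrl_RT, and the glutamate transporter gene Slc1a2 and the glutamine synthetase gene Glul rose by smaller factors. Methionine restriction alone raised Oat by 1.49-fold, while Glul differed by only 0.03 on the log2 scale. The plot of CPM by library shows every value.

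**Figure D1:**
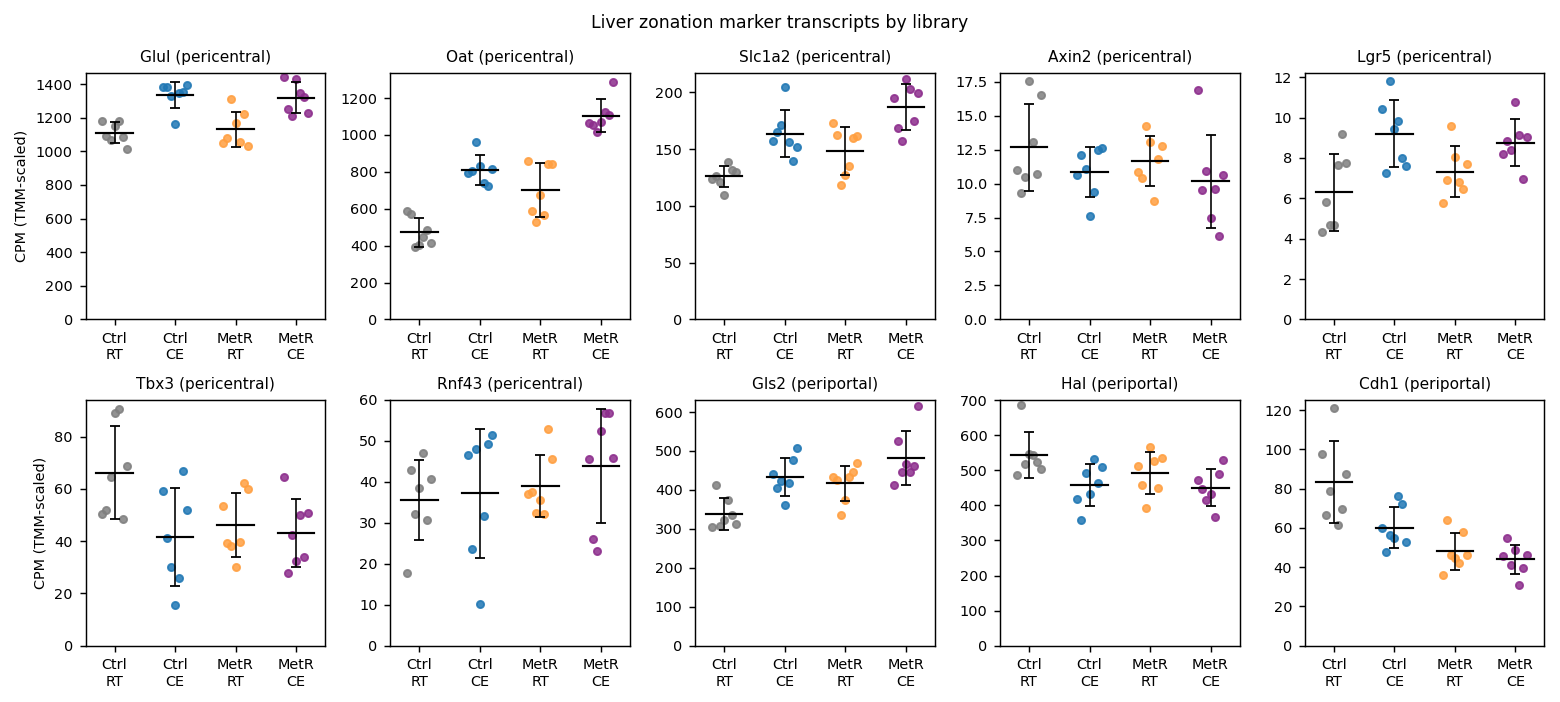
CPM of the 10 zonation markers in each of the 28 liver libraries (y axis, scaled by TMM factors and starting at 0) by group (x axis), with points for single mice and a black line and bar for the mean ± SD of 7. Oat lies higher in all 7 Ctrl_CE (721 to 964 CPM) and all 7 MetR_CE libraries (1018 to 1290 CPM) than in any Ctrl_RT library (394 to 588 CPM).

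Glul, the enzyme that fixes ammonia into glutamine in the last hepatocyte layers before the central vein, was measured at 1013 CPM at the lowest, 1094 at the median and 1180 at the highest in Ctrl_RT. The corresponding values were 1162, 1350 and 1392 CPM in Ctrl_CE, 1033, 1079 and 1312 CPM in MetR_RT, and 1212, 1323 and 1443 CPM in MetR_CE. The 2 cold groups thus sat above Ctrl_RT, completely in MetR_CE and in 6 of 7 libraries in Ctrl_CE, where replicate 4 fell within the control range. Glul rose by 0.27 log2 units in Ctrl_CE (SE 0.064, adjusted p = 0.00197) and by 0.25 in MetR_CE (SE 0.064, adjusted p = 0.00315), both under 1.5-fold. Cold also raised Glul among restricted mice (MetR_CE against MetR_RT, log2 fold change 0.22, SE 0.064, adjusted p = 0.0135). Between the 2 diets the level did not pass the test at either temperature, with a 95% interval of the log2 difference of -0.10 to 0.16 at room temperature and of -0.15 to 0.11 in the cold. In the annotation Glul overlaps the antisense genes Teddm2 and Mir8114, which collected 925 and 0 counts over all libraries, and without strand information reads of Glul and these genes cannot be told apart.

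Oat transfers the amino group of ornithine and feeds glutamate into the glutamine synthetase reaction of the same cells. Its lowest, median and highest levels were 394, 449 and 588 CPM in Ctrl_RT, 527, 673 and 861 CPM in MetR_RT, 721, 806 and 964 CPM in Ctrl_CE, and 1018, 1073 and 1290 CPM in MetR_CE. Both cold groups lay wholly above Ctrl_RT, and MetR_CE lay wholly above each of the other 3 groups, while MetR_RT overlapped Ctrl_RT and Ctrl_CE. The increase was 0.78 log2 units in Ctrl_CE (SE 0.11, adjusted p = 3.1e-06), 0.57 in MetR_RT (SE 0.11, adjusted p = 0.00031, just under 1.5-fold) and 1.23 in MetR_CE (SE 0.11, adjusted p = 8.48e-10). Oat was higher in MetR_CE than in MetR_RT by 0.66 log2 units (SE 0.11, adjusted p = 6.24e-05) and higher than in Ctrl_CE by 0.45 (SE 0.11, adjusted p = 0.0056). The sum of the separate cold and diet changes was 1.35 log2 units, and the interaction term was -0.12 (95% interval -0.44 to 0.19, adjusted p = 0.754).

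Slc1a2 encodes the glutamate transporter through which pericentral hepatocytes take up glutamate. Ctrl_RT ranged from 110 to 139 CPM around a median of 126, MetR_RT from 119 to 173 around 159.5, Ctrl_CE from 140 to 204 around 157, and MetR_CE from 157 to 212 around 195. All cold libraries of either diet were above all Ctrl_RT libraries, whereas MetR_RT overlapped every other group. Slc1a2 rose by 0.38 log2 units in Ctrl_CE (SE 0.086, adjusted p = 0.00119) and by 0.57 in MetR_CE (SE 0.087, adjusted p = 5.27e-06), under 1.5-fold in both. Cold raised it among restricted mice too, by 0.34 (SE 0.086, adjusted p = 0.00555). With methionine restriction alone the difference of 0.24 had an adjusted p of 0.0544, which fell to 0.0199 to 0.0439 without 1 library among Ctrl_RT replicate 5, MetR_RT replicates 3 and 4, Ctrl_CE replicate 4 and MetR_CE replicate 3 or with robust dispersions, and to 0.0383 without Ctrl_CE replicates 2 and 4 together.

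The markers that belong to the Wnt pathway itself took no common direction. Relative to Ctrl_RT, Lgr5 rose in both cold groups by less than 1.5-fold and Tbx3 fell in both. Neither Axin2 nor Rnf43 passed the test in any comparison. Lgr5 and Axin2 were measured at low levels, at most 11.8 and 17.6 CPM in any library. Group means were higher for Tbx3 (41.5 to 66.3 CPM) and Rnf43 (35.6 to 43.7 CPM). All 4 had a wider spread between mice of 1 group than Glul. It reached 5.05-fold from the lowest to the highest library for Rnf43 in Ctrl_CE, against at most 1.27-fold for Glul in any group. For Oat and Cdh1 it reached 1.63-fold and 1.97-fold.

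Lgr5, a receptor for R-spondins that strengthens Wnt signaling, had lowest, median and highest levels of 4.34, 5.83 and 9.20 CPM in Ctrl_RT and 7.27, 9.41 and 11.8 CPM in Ctrl_CE. In MetR_RT they were 5.77, 6.90 and 9.57 CPM, and in MetR_CE 6.95, 8.86 and 10.8 CPM. The 3 highest Ctrl_RT libraries (replicates 5, 6 and 7) reached into the range of the cold groups, and the other 4 lay below it. Lgr5 rose by 0.55 log2 units in Ctrl_CE (SE 0.15, adjusted p = 0.00557) and by 0.48 in MetR_CE (SE 0.15, adjusted p = 0.0145). It did not pass the test in MetR_RT (0.23, SE 0.15, adjusted p = 0.331) or in MetR_CE against MetR_RT (0.25, SE 0.15, adjusted p = 0.271). These values rest on 42 to 261 counts per library.

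Tbx3, a transcription factor gene that marks the pericentral zone and is a Wnt target in hepatocytes, ranged from 48.6 to 90.5 CPM around a median of 64.4 in Ctrl_RT. The ranges and medians were 15.7 to 66.8 and 41.1 CPM in Ctrl_CE, 30.2 to 62.3 and 39.7 CPM in MetR_RT, and 27.8 to 64.5 and 42.5 CPM in MetR_CE. Each of these medians lay below the lowest Ctrl_RT library, yet all ranges overlapped. Tbx3 fell by 0.67 log2 units in Ctrl_CE (SE 0.24, adjusted p = 0.032) and by 0.62 in MetR_CE (SE 0.24, adjusted p = 0.0446), each over 1.5-fold, and its log2 fold change was -0.52 in MetR_RT (SE 0.24, adjusted p = 0.131, or 0.0396 when only these 2 groups were fitted). Between MetR_CE and MetR_RT the log2 fold change of Tbx3 was -0.10 (SE 0.24, adjusted p = 0.835). Both calls over Ctrl_RT depended on single libraries. That in Ctrl_CE was lost without any 1 of Ctrl_RT replicates 4, 5 and 7 or Ctrl_CE replicates 2, 3, 4 and 5 (log2 fold change between -0.81 and -0.52 over all libraries left out, adjusted p up to 0.0823), with both Ctrl_CE replicates 2 and 4 left out (-0.49, adjusted p = 0.117), with robust dispersions (adjusted p = 0.0573) and with only the compared groups (adjusted p = 0.0679). That in MetR_CE was lost for 14 of the 28 libraries left out, which were Ctrl_RT replicates 3, 4, 5 and 7, MetR_RT replicates 1, 3 and 5, Ctrl_CE replicates 2 and 7 and MetR_CE replicates 2 to 6, with an adjusted p of up to 0.107, and with robust dispersions (adjusted p = 0.0753).

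Axin2, a scaffold of the complex that degrades beta-catenin and a widely used readout of Wnt signaling, had lowest, median and highest levels of 9.32, 11.02 and 17.6 CPM in Ctrl_RT. They were 7.64, 11.1 and 12.6 CPM in Ctrl_CE, 8.75, 11.8 and 14.2 CPM in MetR_RT, and 6.13, 9.60 and 16.9 CPM in MetR_CE. The groups overlapped throughout. Its log2 fold change was -0.22 in Ctrl_CE (95% interval -0.56 to 0.12, adjusted p = 0.35), -0.12 in MetR_RT (-0.46 to 0.22, adjusted p = 0.694) and -0.33 in MetR_CE (-0.67 to 0.02, adjusted p = 0.151). Without MetR_CE replicate 1, the highest library of that group, the last value was -0.50 with an adjusted p of 0.015.

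Rnf43, a membrane ubiquitin ligase gene that removes Wnt receptors and is itself a Wnt target, ranged from 17.8 to 47.0 CPM (median 38.4) for Ctrl_RT, 10.2 to 51.3 (median 46.5) for Ctrl_CE, 32.1 to 52.9 (median 37.0) for MetR_RT and 23.0 to 56.9 (median 45.7) for MetR_CE. All groups overlapped, and Ctrl_CE replicate 4 gave the lowest value of all 28 libraries. The log2 fold change over Ctrl_RT was 0.07 in Ctrl_CE (95% interval -0.44 to 0.58), 0.13 in MetR_RT (-0.37 to 0.64) and 0.30 in MetR_CE (-0.21 to 0.81), with adjusted p of 0.879, 0.783 and 0.407. With Ctrl_CE replicates 2 and 4 left out, the first value was 0.36 with an adjusted p of 0.204, and without single libraries it ran from -0.04 to 0.24. The intervals of MetR_RT and MetR_CE include a rise of 1.5-fold.

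The 3 periportal markers did not move together. Gls2 rose in all 3 groups relative to Ctrl_RT, Cdh1 fell in all 3, and Hal fell slightly in the 2 cold groups. The plot of log2 fold changes sets these against the pericentral genes.

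**Figure D2:**
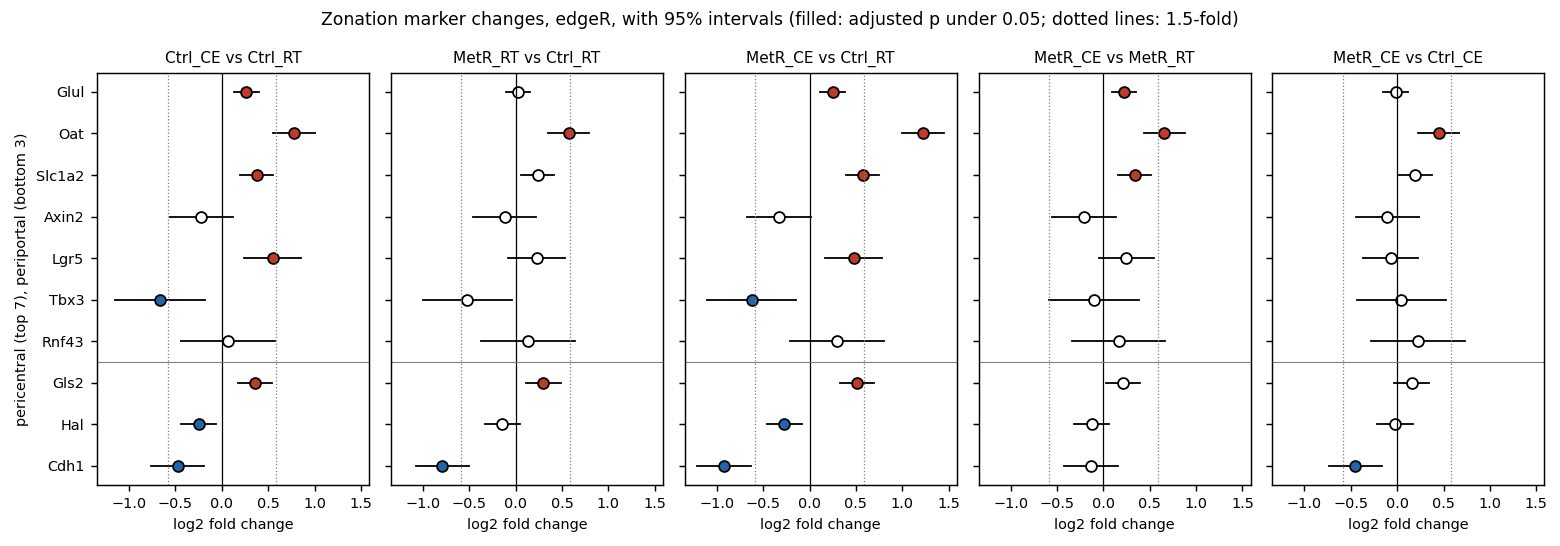
Log2 fold change (x axis) of each zonation marker (y axis) in 5 comparisons, with 95% intervals from edgeR as horizontal lines, filled points for an adjusted p under 0.05 (red higher, blue lower) and dotted lines at 1.5-fold. Oat (1.23) and Cdh1 (-0.92) lie farthest from 0, both in MetR_CE against Ctrl_RT, and Gls2 is the only periportal gene on the right in the 3 comparisons with Ctrl_RT.

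Gls2 encodes the liver glutaminase, which releases ammonia from glutamine near the portal triad and so opposes Glul at the other end of the lobule. Its lowest, median and highest levels were 305, 323 and 413 CPM for Ctrl_RT, 361, 424 and 508 CPM for Ctrl_CE, 336, 432 and 470 CPM for MetR_RT and 412, 461 and 616 CPM for MetR_CE. Of the Ctrl_RT libraries, replicate 2 (412.6 CPM) exceeded the lowest MetR_CE library (412.1 CPM) by a small margin, and the other 6 lay below all of MetR_CE. Gls2 rose by 0.36 log2 units in Ctrl_CE (SE 0.091, adjusted p = 0.00328), by 0.30 in MetR_RT (SE 0.091, adjusted p = 0.0181) and by 0.51 in MetR_CE (SE 0.091, adjusted p = 5.33e-05), in no case by 1.5-fold. It did not pass the test in MetR_CE against MetR_RT (0.21, SE 0.090, adjusted p = 0.111). Since Glul rose as well in the cold, the log2 difference of Glul minus Gls2 had means of 1.72 ± 0.17 for Ctrl_RT, 1.63 ± 0.11 for Ctrl_CE, 1.44 ± 0.28 for MetR_RT and 1.46 ± 0.27 for MetR_CE (SD, n = 7), given here as a description without a test.

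Hal, the histidine ammonia lyase gene whose product starts histidine breakdown in periportal cells, ranged from 486 to 685 CPM (median 524) for Ctrl_RT, 359 to 531 (median 464) for Ctrl_CE, 394 to 568 (median 513) for MetR_RT and 367 to 529 (median 446) for MetR_CE. Ctrl_RT replicate 2 was the highest library, and the groups overlapped below it. Hal fell by 0.25 log2 units in Ctrl_CE (SE 0.093, adjusted p = 0.0443) and by 0.27 in MetR_CE (SE 0.093, adjusted p = 0.025). The adjusted p in Ctrl_CE was no longer under 0.05 in 16 of the 28 fits that left out 1 library, namely Ctrl_RT replicates 2 to 6, MetR_RT replicates 1 and 4 to 7, Ctrl_CE replicates 1, 2, 4 and 6 and MetR_CE replicates 4 and 6 (adjusted p up to 0.151), with Ctrl_CE replicates 2 and 4 both left out (-0.16, adjusted p = 0.226), with only the compared groups (adjusted p = 0.0786), with no filter on low counts (adjusted p = 0.0581) and with the replicate number as a block (adjusted p = 0.0631). That in MetR_CE was over 0.05 without Ctrl_RT replicate 2, MetR_CE replicate 3 or MetR_CE replicate 5 (adjusted p up to 0.0889). Hal did not pass the test in MetR_RT (-0.14, SE 0.093, adjusted p = 0.319) or in MetR_CE against MetR_RT (-0.13, SE 0.093, adjusted p = 0.396).

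Cdh1 encodes E-cadherin, the adhesion protein of epithelial cells, which is more abundant on periportal hepatocytes and is also made by bile duct cells. Its lowest, median and highest levels were 61.3, 78.8 and 121 CPM for Ctrl_RT, 47.8, 56.2 and 76.2 CPM for Ctrl_CE, 36.2, 46.1 and 63.95 CPM for MetR_RT and 31.0, 45.5 and 55.0 CPM for MetR_CE. All MetR_CE libraries lay below all Ctrl_RT libraries, in MetR_RT only replicate 2 (63.95 CPM) reached the control range, and Ctrl_CE overlapped it more widely. Cdh1 fell by 0.79 log2 units in MetR_RT (SE 0.14, adjusted p = 0.000133) and by 0.92 in MetR_CE (SE 0.14, adjusted p = 6.04e-06), both over 1.5-fold, and by 0.47 in Ctrl_CE (SE 0.14, adjusted p = 0.01). The fall in Ctrl_CE was -0.38 with an adjusted p of 0.0594 when Ctrl_CE replicates 2 and 4 were both left out. Methionine restriction lowered Cdh1 in the cold as well (MetR_CE against Ctrl_CE, -0.45, SE 0.14, adjusted p = 0.0322), an adjusted p that rose above 0.05 without any 1 of Ctrl_CE replicates 5 and 6 or MetR_CE replicates 3, 5 and 6 (adjusted p up to 0.0823) and with robust dispersions (0.0503). The separate changes summed to -1.26 log2 units against -0.92 for both stimuli, with an interaction term of 0.34 (95% interval -0.06 to 0.74, adjusted p = 0.416).

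Transcripts of the bile duct list were called downward alongside Cdh1. Of its 9 genes 8 were tested. By both criteria 2 of these fell in Ctrl_CE (against 11.9% of all genes called), 3 in MetR_RT (6.91%) and 3 in MetR_CE (13.5%), and 0 rose. Their summed level ranged from 67.3 to 344 CPM for Ctrl_RT, 49.7 to 55.8 for Ctrl_CE, 47.0 to 60.8 for MetR_RT and 38.6 to 44.9 for MetR_CE. These sums lean on Spp1, so that they do not describe the list as a whole. Spp1 alone gave 31.8 to 308 CPM for Ctrl_RT, 22.5 to 32.1 for Ctrl_CE, 20.7 to 26.9 for MetR_RT and 16.9 to 21.5 for MetR_CE. Spp1 and the duct transcription factor gene Sox9 fell in MetR_CE by 2.10 (SE 0.34, adjusted p = 1.76e-05) and 1.99 log2 units (SE 0.19, adjusted p = 3.19e-09). Without Ctrl_RT replicate 7, the library of high Spp1, the log2 fold change was -1.19 for Spp1 (SE 0.10, adjusted p = 5.84e-10) and -2.05 for Sox9 (SE 0.19, adjusted p = 3.89e-09). The defining duct keratins Krt19 (mean 0.84 CPM) and Krt7 (mean 0.53 CPM) and the surface marker Epcam (mean 1.17 CPM) were near 0 and passed the test in none of the 6 comparisons. With the same library left out, the log2 fold change of Cdh1 was -0.79 in MetR_RT (adjusted p = 0.000314) and -0.91 in MetR_CE (adjusted p = 2e-05). The part of bile duct cells in the fall of Cdh1 was not tested.

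Counts over the markers are set beside the share of all 22143 tested genes that passed the same rule. The comparisons share groups, so that their calls are not independent. In Ctrl_CE against Ctrl_RT, 2 of 10 markers passed an adjusted p of 0.05 with at least 1.5-fold (Oat up, Tbx3 down), against 11.9% of all genes, and 8 of 10 passed the adjusted p alone, against 28.8%. These 8 were 4 pericentral genes up (Glul, Oat, Slc1a2 and Lgr5) and 1 down (Tbx3), and 1 periportal gene up (Gls2) and 2 down (Hal and Cdh1). With Ctrl_CE replicates 2 and 4 left out, 5 of 10 passed the adjusted p alone.

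In MetR_RT against Ctrl_RT, 1 of 10 passed both criteria (Cdh1 down, against 6.91% of genes) and 3 of 10 passed the adjusted p alone (Oat and Gls2 up, Cdh1 down, against 18.8%). In MetR_CE against Ctrl_RT, 3 passed both (Oat up, Tbx3 and Cdh1 down, against 13.5%) and 8 passed the adjusted p alone (against 30.3%), the same 8 genes in the same directions as in Ctrl_CE. The median log2 fold change of the 7 pericentral markers was 0.27 in Ctrl_CE, 0.13 in MetR_RT and 0.30 in MetR_CE, and that of the 3 periportal markers was -0.25, -0.14 and -0.27, against medians of all genes of -0.01, 0.00 and -0.04. With 3 genes, the periportal median is the value of Hal alone in each comparison. Medians of the 18 other periportal hepatocyte genes were 0.30, 0.16 and 0.35 in the same order. Those of the 19 other pericentral hepatocyte genes were 0.30, 0.16 and 0.17. The members were picked by name from known zones, but with earlier results of these data known. No test was run over the list, and the counts beside the shares of all genes are a description.

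Among restricted mice, cold (MetR_CE against MetR_RT) gave 1 call by both criteria (Oat, against 5.19% of genes) and 3 by the adjusted p alone (Glul, Oat and Slc1a2, against 18%), all pericentral and all higher. In the cold, restriction (MetR_CE against Ctrl_CE) gave 0 calls by both criteria in edgeR and also in DESeq2, against 5.26% of genes, with 3 markers at an unadjusted p under 0.05. By the adjusted p alone there were 2, Oat up and Cdh1 down, against 12.1%. The interaction of diet and temperature passed for 0 of 10 markers in edgeR and in DESeq2, with 0 at an unadjusted p under 0.05, against 1.06% of all genes by both criteria and 1.76% by the adjusted p. The adjusted p ranged from 0.416 (Cdh1) to 0.992 (Axin2). For Tbx3 the interval of the interaction ran from -0.12 to 1.25 log2 units, so that a difference of over 1.5-fold lies inside it, whereas for Glul it ran from -0.23 to 0.14.

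Within groups, the pericentral markers did not rise and fall as 1 unit across mice. After removal of group means, Pearson's r over the 28 libraries had a median of 0.05 across the 21 pericentral pairs, with a range of -0.30 (Glul and Slc1a2) to 0.64 (Tbx3 and Rnf43). Values over 0.5 were seen for Tbx3 and Rnf43 (0.64), Axin2 and Tbx3 (0.60) and Oat and Slc1a2 (0.52), and for Gls2 and Hal (0.55) among the 3 periportal pairs. The 21 pairs of a pericentral with a periportal gene had a median of -0.03 and a range of -0.26 to 0.46. All points share library, depth and scaling, and the values are a description.

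**Figure D3:**
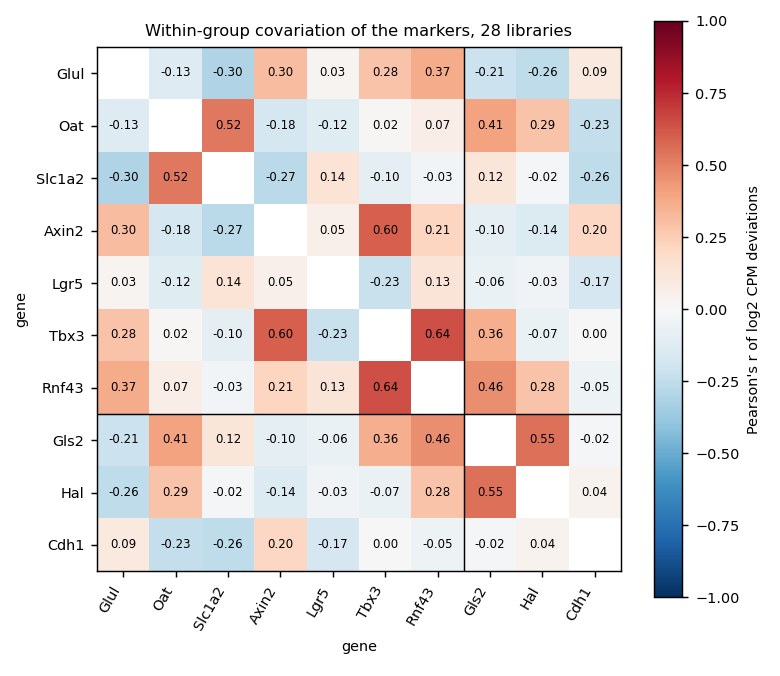
Pearson's r of log2 CPM after removal of group means (color scale and cell labels) for each pair of zonation markers over 28 libraries, with black lines between the 7 pericentral and 3 periportal genes. The cells of Tbx3 with Rnf43 (0.64), Axin2 with Tbx3 (0.60) and Oat with Slc1a2 (0.52) are the darkest red among the pericentral genes, and Glul shows no value over 0.37.

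Transcripts most like 3 of the markers were taken from the 12514 genes with a mean of at least 1 CPM, by Pearson's r of log2 CPM over all 28 libraries. For Glul these were Mttp (r = 0.87), Eno1 (0.87) and Gpd2 (0.86), with r of 0.60, 0.69 and 0.60 after removal of group means. For Axin2 they were Nuak2 (0.71), Ccn1 (0.69) and Gm28876 (0.66, at a mean of 1.36 CPM), with 0.69, 0.67 and 0.58 after removal of group means. Spearman's rank correlation with Axin2 was lower, at 0.55, 0.63 and 0.46. For Gls2 they were Gm5424 (0.88), Ass1 (0.88), a urea cycle enzyme gene of the periportal zone, and Pcca (0.86). After removal of group means these were 0.78, 0.78 and 0.66. Gm5424 is an Ass1-like locus, and its values are uncertain because the quantification could split reads between the 2.

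Other genes of either zone were called in both directions. Beside them, 11.9% of all genes were called by both criteria in Ctrl_CE, 6.91% in MetR_RT and 13.5% in MetR_CE. Of 19 further pericentral hepatocyte genes, 5 rose and 1 fell by both criteria in Ctrl_CE, 3 rose and 1 fell in MetR_RT, and 6 rose and 2 fell in MetR_CE. Cyp2a5, a cytochrome P450 gene, had a median of 159 CPM for Ctrl_RT, 442 for Ctrl_CE, 1176 for MetR_RT and 1282 for MetR_CE, which is a rise of 1.37 (SE 0.14, adjusted p = 2e-08), 2.78 (SE 0.15, adjusted p = 4.59e-14) and 2.78 log2 units (SE 0.15, adjusted p = 4.31e-14). Avpr1a, the vasopressin receptor of pericentral hepatocytes, fell by 0.82 in Ctrl_CE (SE 0.11, adjusted p = 1.47e-06) and by 1.15 in MetR_CE (SE 0.11, adjusted p = 2.84e-09). Of 18 further periportal genes, 3 rose and 0 fell in Ctrl_CE by both criteria, 4 rose and 3 fell in MetR_RT, and 7 rose and 3 fell in MetR_CE. Pigr, the immunoglobulin transporter gene, fell by 0.60 in MetR_RT (SE 0.090, adjusted p = 1.4e-05) and by 0.92 in MetR_CE (SE 0.090, adjusted p = 3.81e-09), whereas Etnppl, an enzyme of phosphoethanolamine breakdown, rose by 1.47 (SE 0.22, adjusted p = 1.33e-05) and 2.31 (SE 0.23, adjusted p = 3.4e-09).

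Among genes of the reactions around Glul, Oat and Gls2, those called mostly rose. The share of all genes called by both criteria was 11.9% in Ctrl_CE, 6.91% in MetR_RT and 13.5% in MetR_CE. By the adjusted p alone it was 28.8% in Ctrl_CE. Of 19 enzymes and carriers of glutamine, proline and glutamate, 4 rose and 0 fell by both criteria in Ctrl_CE, 5 rose and 1 fell in MetR_RT, and 7 rose and 0 fell in MetR_CE. Got1, the cytosolic aspartate aminotransferase gene, rose by 1.01 in Ctrl_CE (SE 0.16, adjusted p = 1.21e-05) and by 1.42 in MetR_CE (SE 0.16, adjusted p = 3.39e-08), and Gpt2, the mitochondrial alanine aminotransferase gene, rose by 0.62 (SE 0.14, adjusted p = 0.00103) and 1.15 (SE 0.14, adjusted p = 1.97e-07). Aldh18a1 and Pycr1, which make proline from glutamate, rose with restriction at room temperature by 1.77 (SE 0.32, adjusted p = 0.000153) and 1.77 (SE 0.26, adjusted p = 1.3e-05). Of 9 urea cycle genes, a cycle that shares ornithine with Oat, 0 were called by both criteria in Ctrl_CE, where 7 rose and 1 fell by the adjusted p alone, 1 rose in MetR_RT and 6 rose in MetR_CE, where Cps1, the entry enzyme of the cycle, rose by 0.88 (SE 0.10, adjusted p = 7.11e-08). Among the 3 steps of histidine breakdown after Hal, 0 reached 1.5-fold, and Amdhd1 and Ftcd fell in Ctrl_CE by 0.51 (SE 0.084, adjusted p = 2.76e-05) and 0.33 (SE 0.074, adjusted p = 0.00116). Of 7 cell junction partners of Cdh1, 1 rose and 1 fell by both criteria in Ctrl_CE and in MetR_CE and 0 in MetR_RT. The tight junction genes were Tjp1, up by 0.68 in Ctrl_CE (SE 0.071, adjusted p = 3.06e-08) and 0.84 in MetR_CE (SE 0.071, adjusted p = 2.58e-10), and Cldn1, down by 0.67 (SE 0.11, adjusted p = 4.33e-05) and 0.85 (SE 0.11, adjusted p = 7.98e-07).

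Upstream of Axin2, Lgr5, Tbx3 and Rnf43, transcripts of the central vein Wnt ligands Wnt2 and Wnt9b were higher in both cold groups than in Ctrl_RT. Wnt2 had lowest, median and highest levels of 1.68, 1.99 and 3.17 CPM for Ctrl_RT, 3.07, 5.45 and 6.22 CPM for Ctrl_CE, 1.84, 3.18 and 3.99 CPM for MetR_RT and 3.23, 4.98 and 5.54 CPM for MetR_CE. All MetR_CE libraries and 6 of 7 Ctrl_CE libraries lay above the Ctrl_RT range. Wnt2 rose by 1.12 log2 units in Ctrl_CE (SE 0.18, adjusted p = 1.64e-05) and by 1.03 in MetR_CE (SE 0.18, adjusted p = 4e-05). Wnt9b rose by 1.19 (SE 0.28, adjusted p = 0.00155) and 1.34 (SE 0.28, adjusted p = 0.000378), and Rspo3, an R-spondin that binds Lgr5, by 0.72 (SE 0.16, adjusted p = 0.000677) and 0.63 (SE 0.16, adjusted p = 0.0027). Without Ctrl_CE replicates 2 and 4 the values in Ctrl_CE were 1.13 for Wnt2, 1.24 for Wnt9b and 0.76 for Rspo3. In that fit, MetR_CE against MetR_RT gave 0.56 for Wnt2 (adjusted p = 0.0193), 0.99 for Wnt9b (adjusted p = 0.00786) and 0.16 for Rspo3 (adjusted p = 0.539). With all libraries, 2 of 6 ligands and R-spondins rose in this comparison by the adjusted p alone (against 18% of genes) and 1 by both criteria (5.19%). Wnt4, Wnt5a and Rspo1 did not pass the test in either comparison, with log2 fold changes between -0.58 and 0.36. Of 23 ligands, receptors and transducers, 6 rose and 0 fell by both criteria in Ctrl_CE, 0 reached both in MetR_RT, where 4 rose by the adjusted p alone, and 7 rose and 0 fell by both in MetR_CE. Rspo3 was among these 4, at 0.48 log2 units in MetR_RT (SE 0.16, adjusted p = 0.0299). Over all genes, 11.9%, 6.91% and 13.5% were called by both criteria in Ctrl_CE, MetR_RT and MetR_CE. By the adjusted p alone 18.8% passed in MetR_RT.

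Other Wnt targets included genes that rose where Axin2 did not pass the test. Of 10 target and feedback genes besides the members, 4 rose and 0 fell by both criteria in Ctrl_CE, 2 rose in MetR_RT and 4 rose in MetR_CE. The shares of all genes called were 11.9%, 6.91% and 13.5% in the same order. Nkd1, a feedback inhibitor of the pathway, rose by 1.11 in Ctrl_CE (SE 0.14, adjusted p = 4.69e-07), 0.68 in MetR_RT (SE 0.14, adjusted p = 0.000638) and 1.02 in MetR_CE (SE 0.14, adjusted p = 8.81e-07). Znrf3, the close relative of Rnf43, rose by 0.65 in Ctrl_CE (SE 0.090, adjusted p = 2.33e-06), 0.56 in MetR_RT (SE 0.090, adjusted p = 3.81e-05, under 1.5-fold) and 0.84 in MetR_CE (SE 0.090, adjusted p = 1.85e-08), and the libraries of each of these groups lay wholly above Ctrl_RT. The difference between these genes and Axin2 or Rnf43 was not tested.

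Markers of other cell types moved with the groups as well. Their counts stand beside 11.9% of all genes called by both criteria in Ctrl_CE, 6.91% in MetR_RT and 13.5% in MetR_CE. All 10 sinusoidal endothelium genes rose by both criteria in Ctrl_CE and in MetR_CE, and 3 of 10 rose in MetR_RT. Their sum ranged from 233 to 315 CPM for Ctrl_RT, 396 to 581 for Ctrl_CE, 328 to 403 for MetR_RT and 518 to 586 for MetR_CE, without overlap between Ctrl_RT and any other group. Of the 6 central vein endothelium genes, which include Wnt2, Wnt9b and Rspo3, 6 rose in Ctrl_CE, 0 in MetR_RT and 5 in MetR_CE, with sums of 10.9 to 25.6 CPM for Ctrl_RT, 27.6 to 49.4 for Ctrl_CE, 19.4 to 28.6 for MetR_RT and 28.5 to 44.1 for MetR_CE. Of 8 stellate cell genes 7, 3 and 6 rose in Ctrl_CE, MetR_RT and MetR_CE, with group medians of the sum of 193 CPM for Ctrl_RT, 326 for Ctrl_CE, 282 for MetR_RT and 300 for MetR_CE. Of 6 Kupffer cell genes 3 fell in MetR_RT and 1 fell in MetR_CE, and 5 rose in Ctrl_CE, a count that includes the 2 libraries of high sums named above. Of 8 hepatocyte genes 2, 2 and 4 fell in the 3 groups and 0 rose. Erythroid genes ran the other way from the endothelial ones, with 0, 2 and 4 of 4 lower in Ctrl_CE, MetR_RT and MetR_CE by both criteria and sums of 145 to 215 CPM in Ctrl_RT against 44.4 to 98.6 CPM in MetR_CE, without overlap. The part of these cell types in the changes of Lgr5, the Wnt ligands and the other markers was not tested.

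**Figure D4:**
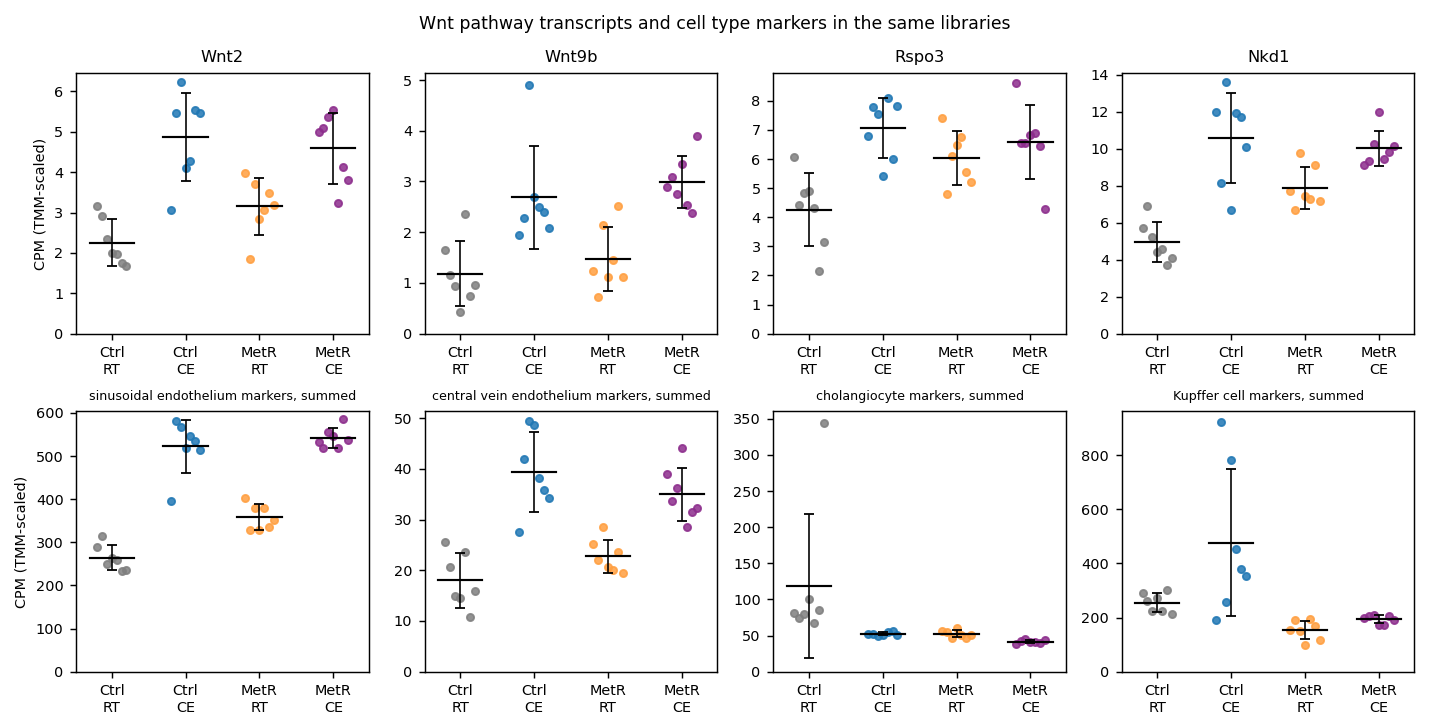
CPM by library (y axis, scaled by TMM factors and starting at 0) of the Wnt pathway genes Wnt2, Wnt9b, Rspo3 and Nkd1 and summed CPM of 4 cell type marker lists in the 4 groups (x axis), with points for single mice and a black line and bar for the mean ± SD of 7. The sinusoidal endothelium sum lies between 396 and 581 CPM in Ctrl_CE and between 233 and 315 CPM in Ctrl_RT, and 1 Ctrl_RT library carries a cholangiocyte sum of 344 CPM. Spp1 gave 308 CPM of this last sum.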

How the data were processed

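PolyA RNA of 28 livers was sequenced in paired reads. The authors aligned reads with STAR 2.7.9a to mm10, counted with featureCounts 2.0.3 and quantified in parallel with Salmon 1.9.0. The deposited liver table holds whole-number counts per gene without normalization. Its name gives Salmon, and if its counts come from Salmon, reads shared by near-identical copies were split by estimate. Symbols matched 51948 of 56884 gene rows by stable identifier, although only 35 versioned identifiers occur in the GENCODE vM21 reference used here, so the annotation version behind the table is uncertain. Promoter windows and positions are from RefSeq (GRCm38.p6).

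Genes with at least 10 counts in total (22143) were scaled by TMM and fitted with edgeR 4.0.16 (R 4.3.3) by the quasi-likelihood test on diet, temperature and their interaction over all 28 libraries, with Benjamini-Hochberg adjustment over all tested genes. A gene was called at an adjusted p under 0.05 and at least 1.5-fold. Log2 CPM used a prior count of 2. "Rose" and "fell" mean an adjusted p under 0.05, and in counts "by both criteria" the fold as well. Depth was 6987895 to 33444374 counts per library, which sets the counting error. Each mouse gave 1 library, and no 2 libraries held identical values.

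The 10 markers and the 21 gene lists were chosen with earlier results of these data known. All 10 markers were tested in every comparison and enter its counts, but not every value is printed. From each other list at most 4 called genes with a mean of at least 1 CPM and the smallest adjusted p were eligible, for cell types the genes of highest mean, and for likeness the 3 genes with the highest r. Krt7, Krt19, Epcam, Sox9, Spp1, Amdhd1, Ftcd, Znrf3 and Rspo3 in MetR_RT, Wnt4, Wnt5a and Rspo1 were named after their values were seen. Dnase1l3 and Colec10 were named because they passed the interaction test, and they are not the genes of highest mean in their lists. The alternatives tried were DESeq2 1.42.0, unshrunken or shrunken by apeglm 1.24.0, RLE factors, filterByExpr, no filter, robust dispersions, only the compared groups, glmTreat, no fold threshold, the replicate block, each library left out and, chosen after seeing the data, Ctrl_CE replicates 2 and 4 both left out. Tested on simulated data with 200 changed genes among 21690, the Ctrl_CE comparison recovered 93% of genes changed by 1 log2 unit and 61% of those changed by 0.5, with 2 false calls. MetR_CE against Ctrl_CE recovered 95% and 64%, with 7 false calls. The interaction recovered 84% and only 21%, with 4 false calls. Recovery and false calls were counted by the adjusted p alone, without the 1.5-fold threshold of a call. Simulated spread followed the trend of the dispersions and not each marker's own spread.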

Additional observations from a re-analysis of the deposited data

Results flagged for a closer look

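Of the 40 groups of marker levels (10 genes in 4 groups of 7), 3 held a library far from the other 6 of its group by Dixon's test at the 95% level, where chance gives about 1 in 20. Glul in Ctrl_CE replicate 4 was 1162 CPM, with the nearest library at 1327 CPM. Oat in MetR_CE replicate 7 was 1290 CPM, with the nearest at 1127 CPM. Hal in Ctrl_RT replicate 2 was 685.3 CPM, with the nearest at 546.1 CPM. Without Ctrl_CE replicate 4 or any other single library, Glul and Oat kept an adjusted p under 0.05 in both cold groups.

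No zonation marker passed the interaction test, but 7 genes of the wider lists did by the interaction term and at least 1.5-fold, so that the cold effect on the log2 scale was lower under MetR than under Ctrl. Over all tested genes, 1.06% passed the same rule. Among pericentral hepatocyte genes the difference was -1.364 for Cyp2a5 (adjusted p = 0.000786), -1.119 for Cyp2c29 (adjusted p = 0.0305) and -0.6425 for Rgn (adjusted p = 0.00699). For the Wnt targets it was -0.7606 for Nkd1 (adjusted p = 0.0347) and -1.062 for Tnfrsf19 (adjusted p = 0.0388). For the sinusoidal endothelium gene Dnase1l3 it was -0.6256 (adjusted p = 0.00638), and for the stellate cell gene Colec10 it was -0.9054 (adjusted p = 0.00244). With each of the 28 libraries left out in turn, Cyp2a5, Rgn, Dnase1l3 and Colec10 kept an adjusted p under 0.05, although Dnase1l3 fell under 1.5-fold without Ctrl_RT replicate 6, MetR_RT replicate 3 or Ctrl_CE replicate 3 (down to -0.57). Cyp2c29 lost it for 5 libraries (Ctrl_RT replicates 3 and 6, MetR_RT replicates 1 and 7 and MetR_CE replicate 7; adjusted p up to 0.0563). Nkd1 lost it for 13 libraries (Ctrl_RT replicates 4, 6 and 7, MetR_RT replicates 3 and 6, Ctrl_CE replicates 3, 5, 6 and 7 and MetR_CE replicates 2, 5, 6 and 7), with an adjusted p of up to 0.0618 and of 0.0574 without Ctrl_RT replicate 7. Tnfrsf19 lost it for 17 libraries (Ctrl_RT replicates 1, 4, 5, 6 and 7, MetR_RT replicates 1, 3, 5 and 6, Ctrl_CE replicates 2 and 7 and MetR_CE replicates 1, 2, 3, 5, 6 and 7), with an adjusted p of up to 0.0732 and of 0.0526 without Ctrl_RT replicate 7. Cold raised Cyp2a5 by 1.37 log2 units under Ctrl, and its difference between MetR_CE and MetR_RT was 0.01 (adjusted p = 0.984), while restriction alone had already raised it by 2.78.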

How the results depend on the processing

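No marker with an adjusted p under 0.05 reversed direction. Of the single-marker values under the alternatives, 629 kept their side of the threshold, 15 lost it (Tbx3, Hal and Cdh1) and 6 gained it (Slc1a2, Tbx3 and Axin2). Fits without single libraries enter this tally only by the lowest and the highest log2 fold change of each value. Over all such fits, Tbx3 lost it for 7 libraries in Ctrl_CE and 14 in MetR_CE, and Hal for 16 and 3. Cdh1 lost it for 5 in MetR_CE against Ctrl_CE. Slc1a2 gained it for 5 in MetR_RT and 1 in MetR_CE against Ctrl_CE, and Axin2 for 1 in MetR_CE. With the replicate number as a block, 1 marker moved above an adjusted p of 0.05, Hal in Ctrl_CE (log2 fold change -0.25, adjusted p = 0.0631), and no other marker changed side. The numbers are not a pairing, since same-numbered libraries come from different mice and the mean correlation of their deviations lay between -0.07 and 0.01 for each number.

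In Ctrl_CE against Ctrl_RT, the 2 markers called became 1 with apeglm, robust dispersions or only the compared groups, 8 with no fold threshold, 0 with glmTreat, which tests against 1.5-fold, and 1 to 3 without single libraries (1 without Ctrl_RT replicate 4 or Ctrl_CE replicate 3, 4 or 5, and 3 without Ctrl_RT replicate 6 or Ctrl_CE replicate 6 or 7). With Ctrl_CE replicates 2 and 4 left out, the 8 markers at an adjusted p under 0.05 became 5. In MetR_RT the 1 call became 3, 0 and, without single libraries, 1 to 2 (2 without Ctrl_RT replicates 1 or 2 or MetR_RT replicates 2, 3 or 5). In MetR_CE the 3 calls became 8, 1 and 2 to 5 (5 without Ctrl_RT replicate 6), and 2 with apeglm. In MetR_CE against MetR_RT 1 became 3 and 0. In MetR_CE against Ctrl_CE 0 became 2 with no fold threshold, and the 2 at an adjusted p under 0.05 became 1 with robust dispersions and 1 (without Ctrl_CE replicate 5 or 6 or MetR_CE replicate 3, 5 or 6) to 3 (without Ctrl_CE replicate 4) without single libraries. Over all genes, the 2639, 1529, 2984, 1149, 1165 and 234 calls of the 6 comparisons became 6388, 4157, 6714, 3987, 2682 and 389 with no fold threshold and 465, 319, 955, 68, 157 and 0 with glmTreat. The interaction gave 411 calls in DESeq2, 374 with Ctrl_CE replicates 2 and 4 left out, and 127 (without Ctrl_CE replicate 7) to 401 (without Ctrl_CE replicate 4) without single libraries. The cause of these moves was not tested, except that a fold threshold removes small changes by construction. Depth limits the precision of markers with few counts, such as Lgr5 at 42 to 261 counts per library.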
